A study of Arabidopsis thaliana with 9 samples.

Results

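The transcripts encoded by the mitochondrial and plastid genomes of Arabidopsis thaliana were examined in RNA from freshly harvested, imbibed seeds. They were chosen by locus prefix alone, ATMG for the mitochondrion and ATCG for the plastid, which gave 185 of the 22555 genes in the deposited tables, 110 mitochondrial and 75 plastid. The study sequenced 9 libraries, 3 in each of 3 groups. The first group is labelled rgl2-13 DOF6ioex and was imbibed in estradiol, the second is DOF6ioex in estradiol, and the third is DOF6ioex in mock solution, which a label describes as water. All groups carry DOF6ioex, a construct from which estradiol induces DOF6, a gene for a transcription factor, while rgl2-13 is an allele of RGL2, a DELLA repressor of gibberellin responses. Imbibition lasted 8 h at room temperature, with estradiol at 50 µM where it was given. No line without the construct was treated, so effects of estradiol and of DOF6 cannot be told apart. The labels do not say whether replicates came from separate plants or harvests, and the p-values then measure only the spread between these samples.

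Plant mitochondria keep a small genome for core subunits of the respiratory chain, ATP synthase, ribosomal proteins and cytochrome c assembly factors, while most mitochondrial proteins come from nuclear genes. The plastid genome holds core photosynthesis genes, part of the plastid ribosome and a bacterial-type RNA polymerase. Dry seeds contain poorly differentiated mitochondria and non-green plastids, and respiration restarts soon after water uptake. Arabidopsis also carries a large insertion of mitochondrial DNA in nuclear chromosome 2, so near-identical copies of many mitochondrial genes exist in the nucleus.

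The values are fragments per kilobase of gene and per unit of sequencing depth (FPKM), a level corrected for gene length, with 0.01 as the lowest listed value. Depth was estimated from the step size of low values and full gene lengths at 25000000 to 27000000 fragments per library. Gene lengths shortened by 50 bases gave a higher estimate. The genes named by the design behaved as follows. DOF6 averaged 33.7 ± 16.3 FPKM in the libraries labelled rgl2-13 DOF6ioex, 33.9 ± 1.98 in DOF6ioex estradiol and 0.637 ± 0.225 in mock (SD, n = 3 each). RGL2 was higher in the libraries carrying the mutant label, with 17.6 ± 1.36 FPKM, against 8.59 ± 1.39 in DOF6ioex estradiol and 10.8 ± 2.13 in mock (n = 3 each). Because RGL2, the gene that the allele affects, was higher and not lower there, these libraries are called by their label throughout. The 6 seed storage genes checked summed to 44924 to 82040 FPKM per library and 3 nuclear photosynthesis genes to 17.6 to 36.6 FPKM. On the first principal component of the tested genes, the labelled mutant group's replicate 1 stood apart at 37.3, with the others between -12.9 and 7.13.

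Mitochondrial transcripts were a small share of these libraries and plastid transcripts a far smaller one. The mitochondrial genes took 0.0632%, 0.103% and 0.0720% of the FPKM total in the 3 libraries labelled rgl2-13 DOF6ioex. They took 0.0786%, 0.0704% and 0.0630% in DOF6ioex estradiol and 0.0519%, 0.0425% and 0.0568% in mock. All 6 libraries from estradiol lay above all 3 from mock, with replicate 2 of the labelled mutant group highest and mock replicate 2 lowest. The plastid genes together took 0.00166%, 0.00201% and 0.00231% in the labelled mutant group. The plastid shares were 0.00148%, 0.00111% and 0.00090% in DOF6ioex estradiol and 0.00144%, 0.00125% and 0.00145% in mock. The summed FPKM of the mitochondrial genes was 31.2 to 70.1 times that of the plastid genes. No ribosomal RNA gene of either organelle is listed in the tables, and how the RNA was selected for sequencing is not given in the sources used here, so these shares describe the listed genes only. In bulk seed RNA, fewer cells of a type and less RNA per cell cannot be told apart.

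**Figure D1:**
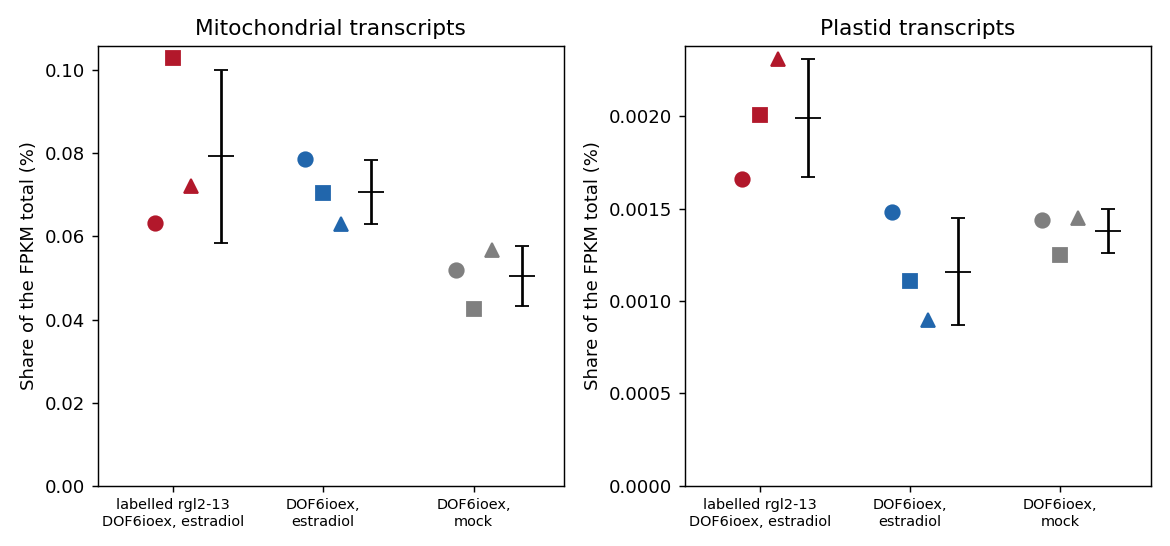
Share of the FPKM total (%, linear axis from 0) taken by the 110 mitochondrial genes (left) and the 75 plastid genes (right) in each of the 9 libraries. Circles, squares and triangles are replicates 1, 2 and 3, and bars show the mean ± SD of each group (n = 3). The mitochondrial share averaged 0.0793%, 0.0706% and 0.0504% from left to right, and the plastid share 0.00199%, 0.00116% and 0.00138%.

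Levels listed under the mitochondrial loci were uneven. Of the 110 genes, 56 averaged at least 1 FPKM over the 9 libraries, 32 at least 5 and 17 at least 10, and the median gene averaged 1.04, against 2.41 over all 22555 genes. Highest was atp1, the alpha subunit of ATP synthase. It had 37.9, 71.0 and 50.7 FPKM in the labelled mutant group, 58.1, 50.2 and 41.0 in DOF6ioex estradiol and 37.9, 29.9 and 43.1 in mock, so the groups overlapped. The next genes were cox2, a core subunit of cytochrome c oxidase, and rps3, a small-subunit ribosomal protein gene, which averaged 33.7 ± 8.98 and 32.4 ± 9.34 FPKM over the 9 libraries (SD, n = 9). atp1 exceeded cox2 in 9 of 9 libraries, whereas cox2 exceeded rps3 in only 5. Then came rpl16, of the large ribosomal subunit, at 22.4 ± 7.61, and atp4, a membrane subunit of ATP synthase, at 22.0 ± 6.71, whose order changed between libraries (rpl16 was higher in 6 of 9). The catalytic subunit gene of cytochrome c oxidase, cox1, averaged 18.6 ± 3.95 FPKM. The remaining genes of the highest 10 were the complex I genes nad2 (ATMG00285, 16.6 ± 4.55) and nad7 (15.3 ± 4.42) and the open reading frames ATMG00660 (16.2 ± 3.88) and ATMG01090 (15.8 ± 3.20). Among these last 4, each gene exceeded the next in the order of means in only 4 to 6 of 9 libraries.

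**Figure D2:**
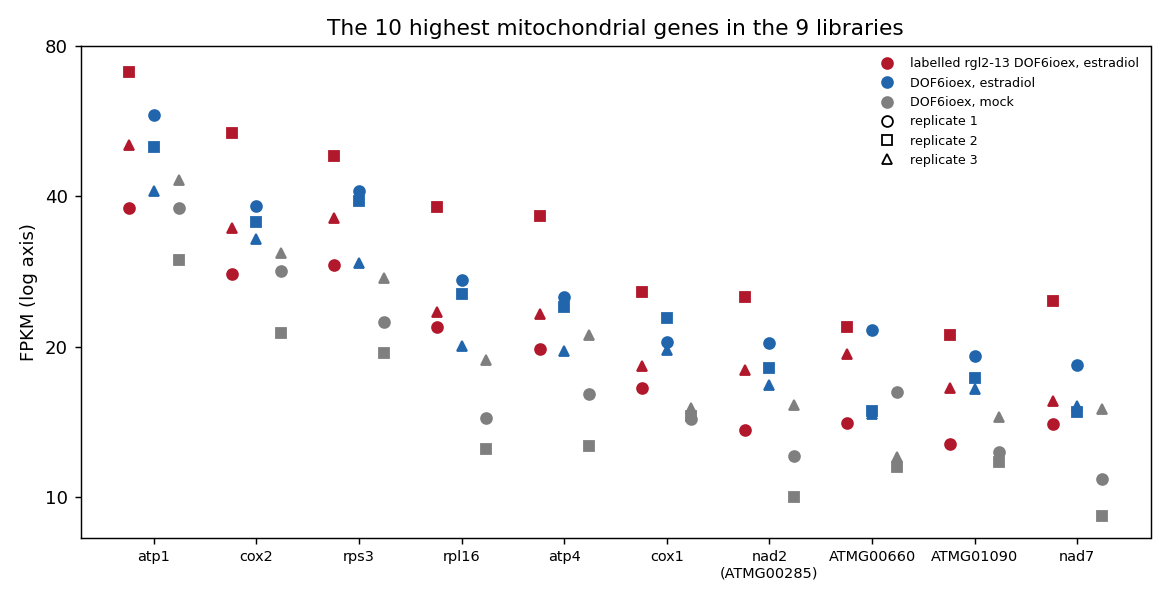
FPKM (log axis) of the 10 mitochondrial genes with the highest mean, in order of that mean, in each of the 9 libraries. Colours mark the groups and symbols the replicates. In each of these 10 genes the highest point is replicate 2 labelled rgl2-13 DOF6ioex, and atp1 spans 29.9 to 71.0 FPKM.

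Each functional list of mitochondrial genes except ribosomal RNA had entries in the tables. Complex I, which oxidises NADH, was represented by 13 entries that together took 20.1% to 23.5% of the mitochondrial FPKM sum in a library. The 6 ATP synthase entries took 15.7% to 18.0%, the 7 ribosomal protein genes 12.3% to 15.3%, and the 3 cytochrome c oxidase genes 10.99% to 12.6%. The 5 entries for cytochrome c maturation, the pathway that attaches haem to cytochrome c, took 2.99% to 4.21%, with ccmB (7.14 FPKM) and ccmFC (6.21) the highest on the mean of 9 libraries. The intron maturase gene matR averaged 5.74 FPKM. The other 74 open reading frames took 26.9% to 34.1% of the sum, but 48 of them averaged under 1 FPKM. The make-up by class of the FPKM listed under mitochondrial loci thus varied within narrow ranges. Its total ranged from 319.3 FPKM in mock replicate 2 to 726.0 in replicate 2 labelled rgl2-13 DOF6ioex. For atp9 (ATP synthase), cob (complex III), rpl5 and rps4 (ribosomal proteins), among others, more FPKM was listed under a nuclear locus of the same annotation. For nad3 (complex I) this was so in 7 of 9 libraries. The parts by class do not count the FPKM of nuclear loci and depend on how reads were assigned. Genes that are spliced in trans from separately transcribed pieces have more than 1 entry here, though not every piece need be listed. The nad2 entries averaged 16.6 FPKM (ATMG00285) and 10.3 (ATMG01320), the nad5 entries 6.81 (ATMG00513) and 5.12 (ATMG00060), and the nad1 entries 9.45 (ATMG00516), 7.70 (ATMG01120) and 0.332 (ATMG01275). The last of these was at 0.01 FPKM in 4 libraries. The nad1 entries are paired by annotation with the nuclear locus AT2G07785, at 2.84 to 7.0 FPKM, and the nad2 entries with AT2G07689, at 2.79 to 7.85 FPKM. The levels of these entries are therefore uncertain, and how reads were divided between the copies was not tested.

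Plastid transcripts were near the lower limit of detection in these libraries, whose RNA selection is not known. None of the 75 plastid genes averaged 1 FPKM, 72 did not reach 1 in any library, and 53 were at 0.01 in at least 1 library. The median gene averaged 0.0833 FPKM. From the depth estimate, all plastid genes together correspond to roughly 163 to 321 fragments per library, and the mitochondrial genes to 7159 to 17090. The highest was clpP, for the proteolytic subunit of the Clp protease and not a photosynthesis gene, at 0.788 ± 0.318 FPKM (SD, n = 9). After it came psbA, for the D1 protein of photosystem II, at 0.606 ± 0.190, and rpoB, for a subunit of the plastid-encoded RNA polymerase, at 0.516 ± 0.161. The next 3 were rpl16, rpl14 and psaJ of the plastid, which averaged 0.422 to 0.499 FPKM, and each of the first 2 exceeded the next in only 5 of 9 libraries. rbcL, the large subunit gene of Rubisco and among the most abundant mRNAs of green leaves, averaged 0.228 FPKM, with a highest value of 0.410. No leaf sample was sequenced beside these seeds. By class, the 22 ribosomal protein genes held the largest part of the plastid sum, 23.0% to 46.3% per library. The 10 photosystem II genes held 7.69% to 19.4% and the 12 genes of the NDH complex 2.76% to 9.72%. Genes in the plastid inverted repeat were listed once per copy with identical values, among them rps7 and ndhB, so the copies cannot be told apart.

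The first comparison asks which organelle transcripts differ when DOF6 is induced by estradiol. The mitochondrial share averaged 0.0706% ± 0.00776 in DOF6ioex estradiol and 0.0504% ± 0.00727 in mock (SD, n = 3 each), a ratio of 1.40, and the groups did not overlap. The exact two-sided permutation test gave p = 0.10, the smallest that 3 against 3 allows, or 0.15 after Benjamini-Hochberg adjustment over the 6 share comparisons. Gene by gene, 59 mitochondrial genes reached 1 FPKM in at least 3 libraries and were tested. None passed in limma at an adjusted p under 0.05, and the lowest adjusted p was 0.189. Over all 13679 genes tested, 0.0292% passed as higher and 0.124% as lower. The direction of the fitted differences was nonetheless almost uniform. Of the 59 mitochondrial genes, 58 were fitted higher in DOF6ioex estradiol, against 62.6% of all genes, and their median difference was 0.41 on the log2(FPKM + 1) scale, against 0.04 over all genes. In 25 of the 59 (42.4%) all 3 libraries from estradiol exceeded all 3 from mock, against 10.6% of all genes, and in none was the reverse seen, against 4.31%. At an unadjusted p under 0.05, 24 were higher and 0 lower, against 4.51% and 2.31% of all genes. These genes vary together from library to library and are not independent tests.

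The difference ran through every class tested. All 11 tested complex I entries were fitted higher, with a median of 0.43 (log2), as were 3 of 3 cytochrome c oxidase genes (median 0.41), 5 of 5 ATP synthase entries (0.42), 4 of 4 cytochrome c maturation genes (0.39) and 6 of 6 ribosomal protein genes (0.49). Of the 29 other open reading frames tested, 28 were fitted higher, with a median of 0.34. The lowest p-value belonged to rpl2, for a large-subunit ribosomal protein. It had 7.40, 8.41 and 7.08 FPKM in DOF6ioex estradiol, against 4.66, 4.64 and 5.26 FPKM in mock, which do not overlap. Its difference was 0.56 ± 0.13 (log2, SE; limma adjusted p = 0.189). Next among genes of known function was cox1, with 20.4, 22.8 and 19.7 FPKM in DOF6ioex estradiol and 14.3, 14.5 and 15.0 in mock. Its groups are also apart, by 0.49 ± 0.14 (adjusted p = 0.410). For rps3 the libraries from estradiol held 40.9, 39.1 and 29.3 FPKM and those from mock 22.4, 19.4 and 27.4, a difference of 0.64 ± 0.18 (adjusted p = 0.443). rpl16 differed by 0.64 ± 0.20 (adjusted p = 0.536), also without overlap.

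The 2 most abundant transcripts were fitted in the same direction and did not pass. atp1 averaged 49.8 ± 8.56 FPKM in DOF6ioex estradiol and 37.0 ± 6.68 in mock (SD, n = 3 each), with overlapping libraries and a difference of 0.42 ± 0.21 (adjusted p = 0.749). cox2 averaged 35.5 ± 2.66 FPKM in DOF6ioex estradiol and 26.8 ± 4.93 in mock, without overlap (0.41 ± 0.20, adjusted p = 0.749). The remaining 3 of the 5 lowest p-values belonged to short open reading frames of unknown function. ATMG01330 had 5.78, 5.12 and 7.16 FPKM in DOF6ioex estradiol and 3.43, 3.98 and 3.50 in mock. ATMG00630 had 2.39, 1.94 and 2.48 FPKM in DOF6ioex estradiol and 1.19, 1.29 and 1.38 in mock. ATMG00140 had 1.49, 1.28 and 1.54 FPKM in DOF6ioex estradiol and 0.740, 0.440 and 0.710 in mock. All 3 separated the groups, but ATMG00140 was under 1 FPKM in every mock library and entered the test only through libraries from estradiol, so its separation is a description. The differences were 0.59, 0.51 and 0.58 (log2), with adjusted p of 0.219, 0.235 and 0.378 in limma.

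The calls depended on which libraries entered the fit. Fitted on the 6 libraries of this comparison alone, 8 of 56 mitochondrial genes passed, all higher in DOF6ioex estradiol (14.3%, against 0.254% of all genes), among them cox1 (adjusted p = 0.0130), rpl2 (0.0141) and rps3 (0.0449). Mock replicate 2, the lowest library for 41 of the 59 genes, carried part of the difference. Without it the median was 0.28, with 50 of 57 genes fitted higher and 12 at an unadjusted p under 0.05 (21.1%, against 1.38% of all genes). Without the filter on low values, 85 of all 110 mitochondrial genes were fitted higher (77.3%, against 57.1% of all 22555 genes).

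**Figure D3:**
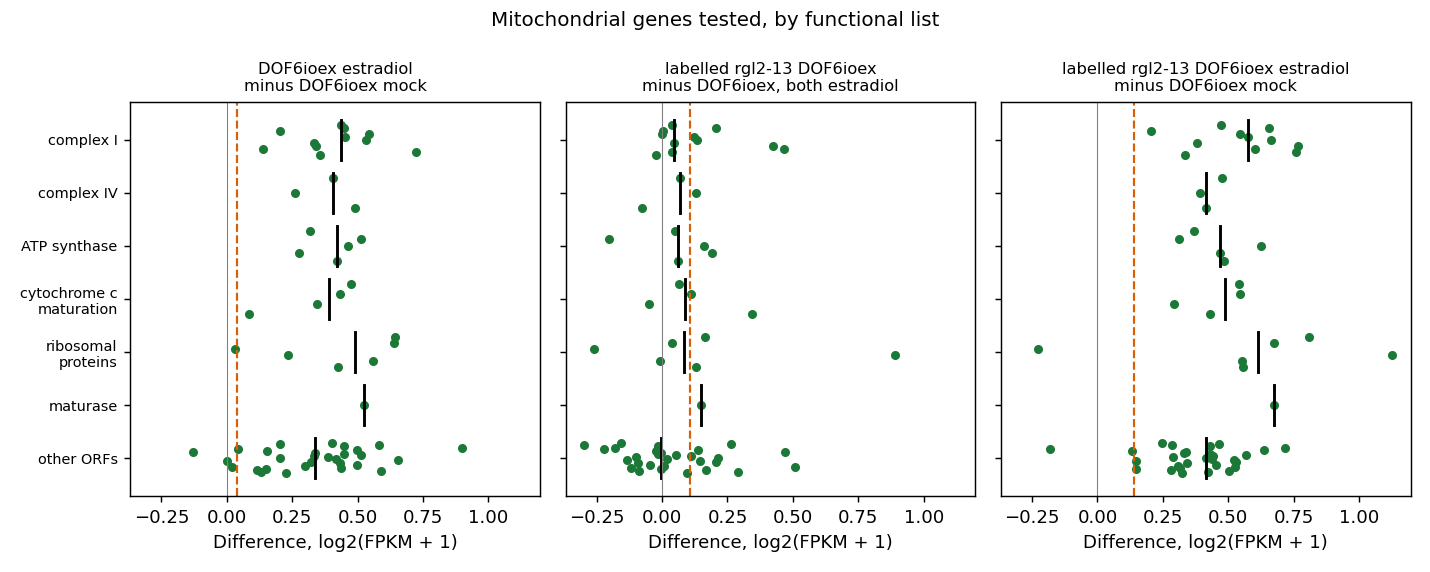
Difference in log2(FPKM + 1) for each of the 59 tested mitochondrial genes (points) by functional list, in 3 comparisons. Black bars are list medians, the dashed line is the median of all 13679 tested genes and the thin line is 0. The points lie mainly right of the dashed line in the left and right panels, with overall medians of 0.41 and 0.44, and around it in the middle panel, with a median of 0.05.

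The libraries labelled rgl2-13 DOF6ioex in estradiol were next set against DOF6ioex mock, a comparison that differs in both label and treatment and shares its mock libraries with the one above. The mitochondrial share averaged 0.0793% ± 0.0208 in the labelled mutant group and 0.0504% ± 0.00727 in mock (SD, n = 3 each), a ratio of 1.57 without overlap (exact permutation p = 0.10, adjusted 0.15). After median-of-ratios scaling of the mitochondrial sum, replicate 1 of the labelled mutant group fell within the mock range, so the groups overlapped. Again 0 of the 59 mitochondrial genes passed in limma, against 0.453% of all genes higher and 0.117% lower, and the lowest adjusted p was 0.0626. Of the 59 genes, 57 were fitted higher and 2 lower, against 80.1% and 19.9% of all genes. The median difference was 0.44, against 0.14 over all genes, and 35 genes were higher and 0 lower at an unadjusted p under 0.05, against 22.8% and 2.43%. In 22 of 59 (37.3%) every labelled mutant library exceeded every mock library, against 27.3% of all genes, and in 0 was the reverse seen, against 3.49%. The background here is itself shifted upward, and scaling by median-of-ratios brought the median of all genes to 0.00 and that of the mitochondrial genes to 0.33. The genes higher at an unadjusted p under 0.05 were then 15 (25.4%, against 8.33% of all genes), and 16 under upper quartile scaling (27.1%, against 9.13%).

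The lowest p-values came from ATMG00630, rpl2, ccmFC, ccmB and rpl16. ccmB, a subunit of the transporter of the cytochrome c maturation pathway, had 8.20, 8.04 and 8.37 FPKM in the labelled mutant group, against 6.20, 3.91 and 6.17 FPKM in mock. ccmFC, of the haem ligation step, had 7.62, 7.67 and 6.47 FPKM in the labelled mutant group, against 5.44, 3.55 and 5.16 FPKM in mock. Both separated the groups, by 0.54 ± 0.13 in each case (limma adjusted p = 0.0782 for ccmB and 0.0753 for ccmFC). rpl16 averaged 27.8 ± 8.96 FPKM in the labelled mutant group and 15.2 ± 3.26 in mock (0.81 ± 0.20, adjusted p = 0.0794). ATMG00630 differed by 0.57 ± 0.12 (adjusted p = 0.0626) and rpl2 by 0.55 ± 0.13 (adjusted p = 0.0682). The levels of the labelled mutant group were uneven. Replicate 2 held the highest value of all 9 libraries for 44 of the 59 genes. Without it the median was 0.31 and 19 of 57 genes were higher at an unadjusted p under 0.05 (33.3%, against 29.9% of all genes). Without replicate 1, 5 of 58 genes passed as higher (8.62%, against 0.597% of all genes). Without mock replicate 2, 19 of 57 were higher at an unadjusted p under 0.05 (33.3%, against 12% of all genes).

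Between the labelled mutant group and DOF6ioex, both in estradiol, no common direction was seen in the mitochondrial genes when all 9 libraries were fitted. The share averaged 0.0793% ± 0.0208 in the labelled mutant group and 0.0706% ± 0.00776 in DOF6ioex estradiol (SD, n = 3 each), with overlap (exact permutation p = 0.60, adjusted 0.60), and its difference turned negative without replicate 2 of the labelled mutant group. Of the 59 genes, 37 were fitted higher (62.7%, against 76.4% of all genes). The median difference was 0.05, against 0.11 over all genes, and -0.04 under median-of-ratios scaling. None passed in limma, against 0.139% of all genes higher and 0.0219% lower. At an unadjusted p under 0.05 there were 2 higher and 0 lower, against 12.6% and 2.63% of all genes. In 5 of the 59 genes (8.47%) every labelled mutant library exceeded every DOF6ioex library, against 15.8% of all genes, and in 0 was the reverse seen, against 4.96%. The direction depended on the library left out. Without replicate 1 of the labelled mutant group, 49 of 58 genes were fitted higher (84.5%, against 62.5% of all genes). Without its replicate 2, 20 of 57 were (35.1%, against 78.8% of all genes).

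The lowest p-value in this comparison was that of rps4, a small-subunit ribosomal protein gene. It had 7.88, 9.70 and 8.93 FPKM in the labelled mutant group, 4.16, 3.34 and 5.61 in DOF6ioex estradiol and 4.39, 1.51 and 5.72 in mock. The labelled mutant libraries were apart from both other groups, by 0.89 ± 0.29 from DOF6ioex estradiol (log2, SE; limma adjusted p = 0.236) and by 1.13 ± 0.29 from mock (adjusted p = 0.0849). The nuclear locus AT2G07734, whose protein entry is the same, did not share this order. It had 11.6, 18.7 and 15.8 FPKM in the labelled mutant group, 17.9, 16.5 and 10.9 in DOF6ioex estradiol and 8.32, 8.92 and 11.3 in mock. The FPKM of the pair summed to 19.5, 28.4 and 24.8 in the labelled mutant group and 22.0, 19.8 and 16.5 in DOF6ioex estradiol, which overlap. ATMG01210 (0.51 ± 0.21, adjusted p = 0.295), ATMG01350 (0.29 ± 0.14, 0.343), ccmFN2 (0.34 ± 0.18, 0.366) and ATMG00140 (-0.30 ± 0.16, 0.374) followed in limma.

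The plastid genes were compared by their summed level, since only clpP reached 1 FPKM in 3 libraries. Their FPKM summed to 12.04, 14.2 and 16.7 in the labelled mutant group, 10.9, 8.34 and 6.65 in DOF6ioex estradiol and 10.8, 9.36 and 10.8 in mock. All labelled mutant libraries lay above the other 6. The share averaged 0.00199% ± 0.000320 in the labelled mutant group and 0.00116% ± 0.000290 in DOF6ioex estradiol, a ratio of 1.71 (SD, n = 3 each; exact permutation p = 0.10, adjusted 0.15). Against mock, at 0.00138% ± 0.000120, the ratio of the labelled mutant group was 1.44 (exact permutation p = 0.10, adjusted 0.15). DOF6ioex estradiol and mock overlapped, with a ratio of 0.843 (exact permutation p = 0.40, adjusted 0.48). After median-of-ratios scaling the labelled mutant group overlapped both others (exact permutation p = 0.20 against DOF6ioex estradiol and 0.30 against mock). The mitochondrial and plastid shares thus ordered the groups differently. The ratio of the mitochondrial to the plastid sum was 38.1, 51.2 and 31.2 in the labelled mutant group, 53.2, 63.1 and 70.1 in DOF6ioex estradiol and 35.9, 34.1 and 39.2 in mock, with every DOF6ioex estradiol library above the other 6.

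Much of the plastid difference lay in the ribosomal protein genes. Their 22 entries summed to 4.58, 5.43 and 6.94 FPKM in the labelled mutant group, 2.51, 2.87 and 2.51 in DOF6ioex estradiol and 3.43, 4.33 and 4.75 in mock. The 6 photosystem I genes summed to 0.90, 2.10 and 1.93 FPKM in the labelled mutant group and 0.790, 0.280 and 0.290 in DOF6ioex estradiol, with 0.960, 0.370 and 0.410 in mock. In both lists the labelled mutant group overlapped mock. Much of the photosystem I sum was psaJ, of 135 bases. It had 0.37, 1.49 and 1.14 FPKM in the labelled mutant group and 0.38, 0.01 and 0.01 in DOF6ioex estradiol. The 10 photosystem II genes did not separate the labelled mutant group from DOF6ioex estradiol. They summed to 1.37, 1.09 and 2.37 FPKM in the labelled mutant group, 1.95, 1.62 and 0.910 in DOF6ioex estradiol and 1.61, 1.68 and 1.56 in mock. A difference between the photosystem lists was not tested. clpP had 1.13, 0.990 and 1.17 FPKM in the labelled mutant group, 1.13, 0.540 and 0.410 in DOF6ioex estradiol and 0.75, 0.49 and 0.480 in mock. It reached 1 FPKM in exactly 3 libraries, 2 of them from the labelled mutant group and 0 from mock, so its difference of the labelled mutant group from mock, 0.42 ± 0.15 (log2, SE; limma adjusted p = 0.133), is a description. These sums rest on an estimated 163 to 321 fragments per library, and short genes weigh heavily in a sum of FPKM. As a share of length-weighted FPKM, which counts fragments, the plastid ratio of the labelled mutant group to DOF6ioex estradiol was 1.42.

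**Figure D4:**
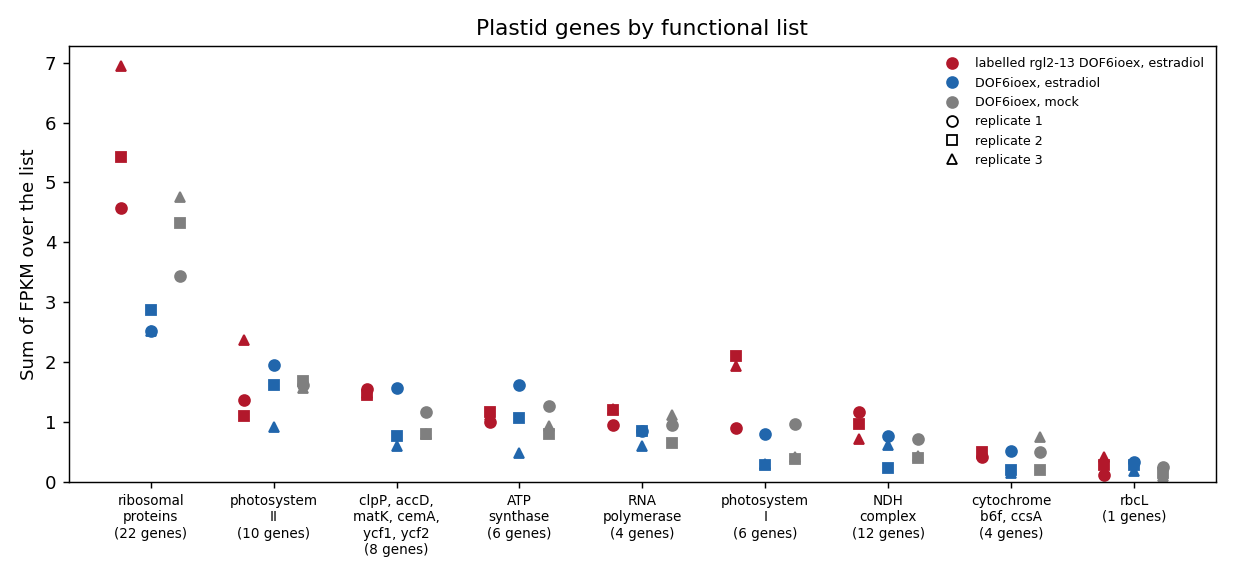
Sum of FPKM over the plastid genes of each functional list in each of the 9 libraries (linear axis from 0), with colours for groups and symbols for replicates. The ribosomal protein genes hold the highest sums, 4.58 to 6.94 FPKM in the libraries labelled rgl2-13 DOF6ioex, 2.51 to 2.87 in DOF6ioex estradiol and 3.43 to 4.75 in mock.

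For 31 of the 110 mitochondrial genes, 18 of them among the 59 tested, a locus outside ATMG and ATCG shares the protein or gene annotation. For matR this locus has no Arabidopsis gene number, and whether it is nuclear is not given. For part of the 31 genes the reads appear under one locus or the other. nad3, a complex I subunit gene (ATMG00990), was listed at 5.83 FPKM in replicate 1 of the labelled mutant group and 6.25 in replicate 2 of DOF6ioex estradiol, and at 0.01 in the other 7 libraries. The nuclear locus AT2G07751 was at 0.01 in exactly those 2 libraries and at 3.03 to 5.93 FPKM in the others. Their sum was 3.04 to 6.26 FPKM, with no gap between the libraries of either kind. In the authors' deposited table, nad3 has a log2 ratio of 9.29 (p = 2.99e-18) for DOF6ioex estradiol over mock in pair 2. For the labelled mutant over DOF6ioex estradiol the authors' deposited table gives 9.19 in pair 1 and -9.29 in pair 2. rpl5 (ATMG00210) was at 0.01 FPKM in 4 libraries and at most 2.28, while its nuclear locus AT2G07725 held 15.6 to 37.4 FPKM. The authors' deposited table gives rpl5 log2 ratios of -7.04 in pair 2 and 7.83 in pair 3 for DOF6ioex estradiol over mock. The signs are opposite between pairs of the same comparison, and nad3 and rpl5 are given no direction here.

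**Figure D5:**
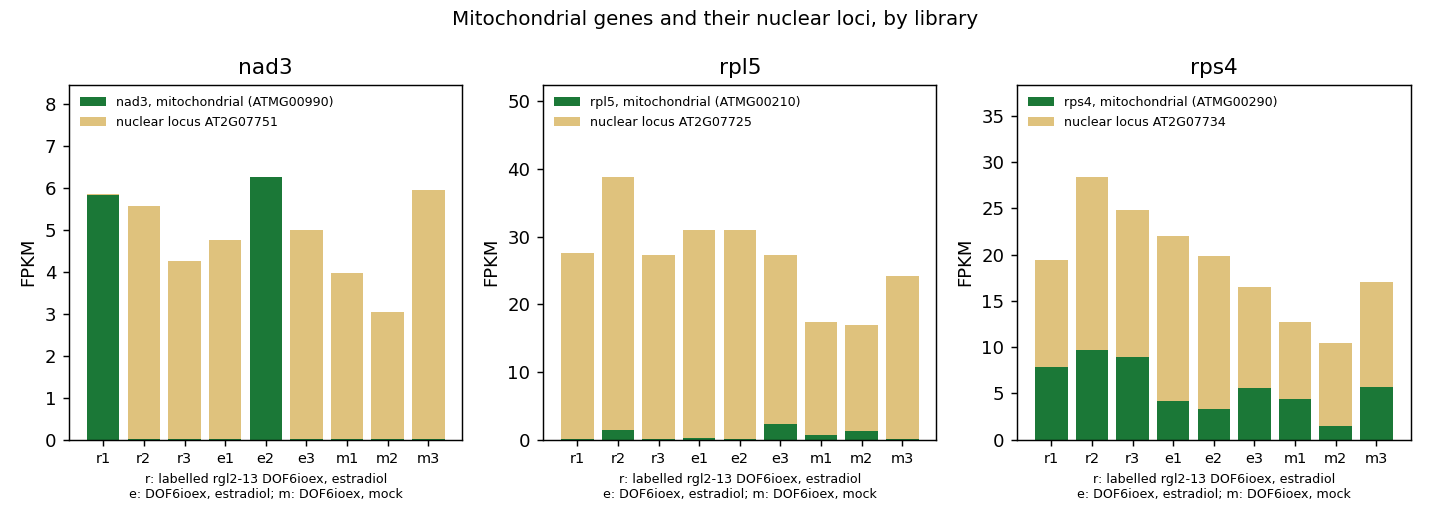
FPKM of nad3, rpl5 and rps4 (green) and of the nuclear locus paired with each (tan), stacked by library. For nad3 the whole bar is green in replicate 1 labelled rgl2-13 DOF6ioex (5.83 FPKM) and in replicate 2 of DOF6ioex estradiol (6.25 FPKM), and tan in the other 7 libraries.

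Other pairs were credited mainly to the nucleus. cob, for cytochrome b of complex III, had at most 0.350 FPKM under its mitochondrial locus and 10.1 to 22.5 under AT2G07727. atp9, for the ring subunit of ATP synthase, had at most 0.820 FPKM, against 30.3 to 46.9 under AT2G07671. The values listed under the mitochondrial loci of cob and atp9 are therefore uncertain. For atp8 (with AT2G07707) and rps12 (with AT2G07675), both loci were listed with identical values. atp1 and AT2G07698 both held substantial values, 29.9 to 71.0 and 26.9 to 49.9 FPKM. Taken as a block, the 61 listed loci from AT2G07660 to AT2G07835 summed to 234.9, 332.9 and 257.6 FPKM in the labelled mutant group, 286.7, 282.2 and 249.0 in DOF6ioex estradiol and 195.2, 174.5 and 224.1 in mock. These sums ordered the groups as the mitochondrial sums did, with all libraries from estradiol above all from mock. Of the 41 tested mitochondrial genes paired with no locus outside ATMG and ATCG, 41 were fitted higher in DOF6ioex estradiol than in mock, against 62.6% of all genes. Their median was 0.43 (log2). Pairing was by annotation and not by sequence, so these genes may still have nuclear copies. Where a nuclear and a mitochondrial sequence are the same, reads from either cannot be told apart.

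Nuclear genes for organelle transcription and respiration were described for comparison, and none of the 39 tested passed in limma in any of the 3 comparisons. At an unadjusted p under 0.05, 2 of them were higher in DOF6ioex estradiol than in mock, 4 in the labelled mutant group than in DOF6ioex estradiol and 8 in the labelled mutant group than in mock, with 0 lower in each. These are 5.13%, 10.3% and 20.5% of the 39, beside 4.51%, 12.6% and 22.8% of all genes, and so near the background. Organelle genes are transcribed in part by phage-type RNA polymerases encoded in the nucleus. The mitochondrial enzyme gene AT1G68990 (MGP3) averaged 9.63 ± 2.21 FPKM in the labelled mutant group, 8.18 ± 1.16 in DOF6ioex estradiol and 6.57 ± 0.642 in mock (SD, n = 3 each). The dual-targeted enzyme gene AT5G15700 averaged 9.64 ± 1.73 FPKM in the labelled mutant group, 8.61 ± 0.666 in DOF6ioex estradiol and 6.64 ± 0.705 in mock. For both AT1G68990 and AT5G15700, all libraries from estradiol exceeded those from mock. Of all genes, 10.6% lay above mock in this way in DOF6ioex estradiol and 27.3% in the labelled mutant group. The plastid enzyme gene SCA3 averaged 20.1 ± 3.17 FPKM in the labelled mutant group, 18.3 ± 1.03 in DOF6ioex estradiol and 16.9 ± 0.770 in mock. All 3 polymerase genes were fitted higher in DOF6ioex estradiol than in mock, with a median of 0.27 (log2) and adjusted p of 0.645 to 0.868. The 17 nuclear respiratory chain genes tested had a median of 0.02 in that comparison, with 11 fitted higher. Among them AT5G13440, for the Rieske protein of complex III, averaged 131.6 ± 1.46 FPKM in DOF6ioex estradiol and 126.6 ± 1.85 in mock. CYTC-2, for cytochrome c, averaged 76.2 ± 5.31 FPKM in DOF6ioex estradiol and 73.0 ± 3.28 in mock. The mitochondrial genes of the respiratory chain thus lay further from mock than the nuclear ones by their medians, 0.43 for complex I against 0.02, a difference between lists that was not tested.

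Nuclear genes of plastid transcription differed little between DOF6ioex estradiol and mock. Of 12 proteins associated with the plastid-encoded polymerase, 3 were fitted higher and 9 lower, with a median of -0.04 (log2). PTAC6 averaged 31.4 ± 2.84 FPKM in DOF6ioex estradiol and 30.7 ± 1.45 in mock. TRX z averaged 19.3 ± 1.29 FPKM in DOF6ioex estradiol and 23.3 ± 3.30 in mock. In the labelled mutant group against DOF6ioex estradiol, 10 of the 12 were fitted higher, with a median of 0.10, beside 0.11 over all genes. The 4 tested sigma factor genes, which direct the plastid polymerase to promoters, had a median of 0.24 there. SIGF had 6.73, 3.81 and 4.65 FPKM in the labelled mutant group and 3.58, 3.81 and 4.79 in DOF6ioex estradiol, so that only replicate 1 of the label, which stood apart over all genes, exceeded the DOF6ioex range. SIG2 averaged 3.32 ± 0.640 FPKM in the labelled mutant group and 2.63 ± 0.497 in DOF6ioex estradiol. Of 3 genes for organelle RNA degradation, EMB2730 (RNR1) averaged 16.2 ± 1.03 FPKM in DOF6ioex estradiol and 14.2 ± 0.807 in mock, and the polynucleotide phosphorylase gene AT5G14580 averaged 14.7 ± 1.70 in DOF6ioex estradiol and 12.7 ± 0.263 in mock. The remaining gene of this list, RIF10, was fitted lower in DOF6ioex estradiol than in mock, with a difference of -0.097 (log2).

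Other transcripts moved with some of these libraries. EPR1, which encodes an extensin-like protein of the endosperm and is the highest transcript of the series, had 33815, 67414 and 56484 FPKM in the labelled mutant group, 50203, 44219 and 37193 in DOF6ioex estradiol and 42103, 54200 and 48812 in mock. In the labelled mutant group and in DOF6ioex estradiol its order over the replicates was that of the mitochondrial share, while mock replicate 2, lowest in that share, held the highest EPR1 value of its group. The 6 seed storage genes summed to 45841, 50648 and 44924 FPKM in the labelled mutant group, 60289, 55656 and 53970 in DOF6ioex estradiol and 82040, 57166 and 54838 in mock. The part of these transcripts in the organelle shares was not tested. Leaving the 10 highest nuclear genes out of the total kept all 6 libraries from estradiol above all 3 from mock in the mitochondrial share. Median-of-ratios scaling of the mitochondrial sum did not, since replicate 1 of the labelled mutant group then fell within the mock range. The DOF6ioex estradiol libraries stayed above mock under that scaling.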

How the data were processed

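RNA from imbibed seeds was sequenced in 9 libraries, and per the submitters' processing notes the reads were aligned by HISAT, in a version not given in the sources used here. Nor are the genome build, the counting tool and the use of strand given, so no coordinates are printed and reads from overlapping or antisense genes cannot be told apart. The deposited pairwise tables hold FPKM per gene, per the file headers. Per the file headers, 1 of the 6 tables gives RPKM, with the same values for the library shared with another table. The authors also deposited a log2 ratio and a p-value per pair, by an unnamed test, which are quoted for nad3 and rpl5 alone. Columns of FDR that run above 1 in 2 deposited tables were read as a score and not used.

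Joining the tables gave values of 22555 genes in 9 libraries, and a missing value was taken as 0.01. A share is the summed FPKM of a genome's genes over the FPKM of all genes, compared by exact two-sided permutation. Single genes were tested by limma 3.58.1 (R 4.3.3, trended variance) of log2(FPKM + 1). The 13679 genes that reached 1 FPKM in 3 or more libraries entered 1 fit with a mean per group, and calls were made where the Benjamini-Hochberg adjusted p was under 0.05. Differences on this scale understate those of low genes. Depth was read from the steps of low values. With full gene lengths, 80.3% to 86.1% of them lay within 0.15 of a whole number of fragments. With 50 bases taken off, 82.3% to 91.3% did, more in each of the 9 libraries, and the estimate was 28700000 to 31000000. The fragment numbers given here use the estimate with full gene lengths. No counting interval was derived from either estimate. In simulated data with 200 changed genes, tested for each comparison, the fit recovered changes of log2 1.00 far more often than changes of log2 0.50.

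The genes and lists were chosen with earlier results of these data known. After the annotations were seen, ATMG00120 was moved out of the complex I list and ATMG00570 out of the maturase list. Genes named are DOF6, RGL2, the 10 highest of each genome, the 2 highest per list, the 5 of lowest p per comparison, and nuclear loci paired with a named gene. Other genes under 1 FPKM are given by counts and ranges. One item that the rule would name is not reported here. Alternatives were another pseudocount, no filter, 2 scalings, only the 6 libraries compared, a block for the replicate number, and each library left out. For shares they were other denominators, missing values at 0 and, chosen after seeing the data, length-weighted shares and other sets of members. Same-numbered libraries did not pair: the correlations of their deviations from group means ranged from -0.41 to 0.25.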

Additional observations from a re-analysis of the deposited data

How the results depend on the processing

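The count of organelle genes called was 0 in limma in each of the 3 comparisons, and some alternatives moved it. For estradiol against mock in DOF6ioex it was 8 when only the 6 libraries compared were fitted, and 0 to 3 when each library was left out in turn. There the 3 were reached without replicate 2 labelled rgl2-13 DOF6ioex. For the labelled mutant group against mock it was 0 to 5, with 5 without replicate 1 of that label. Both scalings, the other pseudocount, no filter and the replicate block gave 0 in all 3 comparisons. With the replicate block, 26 mitochondrial genes were higher at an unadjusted p under 0.05 for estradiol against mock, 2 for the label comparison and 27 for the label in estradiol against mock (44.1%, 3.39% and 45.8%, beside 3.90%, 10.9% and 19.9% of all genes).

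The mitochondrial share difference between the labelled mutant group and DOF6ioex, both in estradiol, was 0.00868 percentage points and reversed to -0.00306 without replicate 2 of the labelled mutant group, with a range of -0.00306 to 0.0168 over the libraries left out. The difference of DOF6ioex estradiol from mock ranged from 0.0163 to 0.0240, and that of the labelled mutant group from mock from 0.0172 to 0.0370. With the mitochondrial sum scaled by median-of-ratios, DOF6ioex estradiol stayed apart from mock, while the labelled mutant group overlapped mock. Plastid differences kept their sign in every setting run. With the replicate block and an exact sign-flip test, no share difference had a p under 0.25, the smallest that 3 pairs allow. Of 590 values of named genes under alternatives, 580 kept direction and side of the threshold, 10 passed it newly and 0 reversed. Leaving out rRNA and transfer RNA genes was not run, since none is listed. The plastid genes rest on an estimated 163 to 321 fragments per library in all.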
